A study of Bos taurus with 9 samples.

Results

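The RNA levels of the 6 genes that encode the ubiquitin-like protein ISG15 and the enzymes that attach and remove it were followed in cultured bovine endometrial cells (BEND) with and without interferon tau (IFNT). The rule named the 6 by symbol for their role, with earlier results of these data known, and all 6 were found among the 17162 genes of the FPKM table. They are ISG15, the activating enzyme UBA7, the conjugating enzyme UBE2L6, the ligases HERC5 and HERC6, and the removal enzyme USP18. The 9 libraries were 3 of untreated cells (CON), 3 of cells given 1 nM E2 (estradiol) and 100 nM P4 (progesterone) for 12 h (GA), and 3 of cells given the same hormones for 12 h and afterwards IFNT at 100 ng/mL for another 12 h (GB). All cells, labelled primary epithelial cells of wild type, were grown from uteri of Holstein cows collected at an abattoir, and were kept in medium with 10% fetal bovine serum. The sources used here do not say how many cows the replicates came from, or when CON and GA cells were harvested relative to GB cells. A difference in culture time therefore cannot be told apart from the IFNT step, and p-values measure the spread between these samples, which may be technical.

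ISG15 is a small protein made of a pair of ubiquitin-like domains, and it can be joined to lysines of other proteins much as ubiquitin is. UBA7 activates it, UBE2L6 receives it from UBA7, and HERC5 in humans or HERC6 in mice passes it to the target. USP18 cuts it off again and, apart from this activity, binds the interferon receptor subunit IFNAR2 and dampens signaling. All of them are classical interferon-stimulated genes, and ISG15 is one of the proteins that the ruminant uterus makes in response to the conceptus. RNA levels say nothing of how much ISG15 was attached to proteins.

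The label of the cells was checked against marker genes. None of the 7 epithelial markers in the table, among them KRT8, KRT18 and CDH1, reached a mean of 0.5 FPKM (fragments mapped to a gene, scaled for its exon length and for the mapped reads of the library), and together they summed to between 0.430 and 1.90 FPKM in the 9 libraries. The 8 stromal fibroblast markers, led by VIM with a mean of 8539 FPKM, summed to 16640 to 17220 FPKM in CON, 16820 to 17210 in GA, against 15040 to 15150 in GB. The 4 endothelial markers summed to at most 3.34 FPKM, and the 4 immune markers to between 20.5 and 26.9 FPKM, most of it CD14. The defining epithelial markers of the labelled cell type were thus near 0, and the cells are called BEND here as in the labels. These are RNA levels, and the study identified the cells by immunofluorescence for the cytokeratin encoded by KRT18, a protein measure not analysed here. It reports the cells as positive for cytokeratin, while KRT18 RNA had a mean of 0.361 FPKM over the 9 libraries. The stromal sum, mostly VIM, was lower in GB than in the other groups. Its members did not move together, since DCN (922 to 960 FPKM) and LUM (725 to 774) in GB lay above their CON libraries and below their GA libraries. The part of these markers in the results below was not tested. In bulk RNA, fewer cells of a type and less RNA per cell cannot be told apart.

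Without IFNT the 6 genes were expressed at low levels, between 1.76 and 16.0 FPKM in the 6 libraries of CON and GA. With IFNT they ranged from 135 to 5616 FPKM. All 6 were called higher in GB vs. GA and all 6 in GB vs. CON by limma (|log2FC| above 1 and Benjamini-Hochberg, BH, adjusted p under 0.05), where 2.66% and 2.94% of the 12578 tested genes were called higher. In each of the 6 genes every GB library lay above every CON and GA library, as was the case against GA for 15.7% and against CON for 22.2% of the genes tested. The median log2FC of the 6 genes was 4.89 in GB vs. GA and 4.80 in GB vs. CON, against −0.075 and −0.016 over all tested genes. These comparisons share the GB libraries. All 6 genes passed the filter on low values (a mean of at least 0.5 FPKM), and all 6 would have passed on the CON and GA libraries alone.

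**Figure D1:**
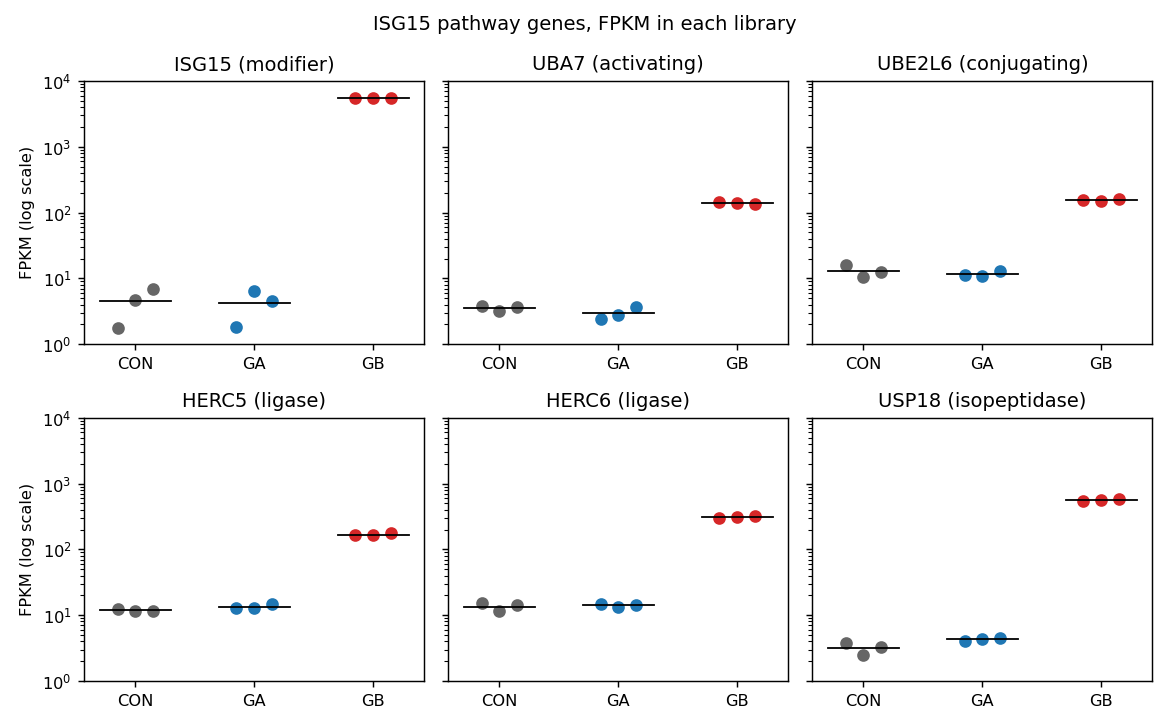
FPKM of the 6 genes (log axis) in each library of CON (grey), GA (blue) and GB (red), with points for libraries in replicate order and black lines for group means. In every panel the GB libraries stand above all others, and the widest scatter is that of ISG15 in CON and GA, between 1.76 and 7.01 FPKM.

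ISG15, the modifier itself, was listed at 1.76, 4.74 and 7.01 FPKM in CON, at 1.80, 6.46 and 4.49 in GA, and at 5616, 5536 and 5596 in GB. CON and GA libraries overlapped throughout, and those of GB stood far above them. The mean was 4.50 ± 2.63 FPKM (SD, n = 3) for CON, 4.25 ± 2.34 for GA and 5582 ± 41.8 for GB. The ratio of mean FPKM was 1314 in GB over GA and 1240 in GB over CON. The log2FC in GB vs. GA was 10.34 (SE 0.46, 95% interval 9.30 to 11.38, limma, BH-adjusted p = 2.1e-07). This was rank 1 of the 12578 tested genes, and the log2FC in GB vs. CON was at rank 2. MX2 (10.29) and RSAD2 (10.06) lay within that interval in GB vs. GA. Both were under 0.5 FPKM on average in CON and GA, so the order of these genes depends on the 0.5 added to FPKM. By its level ISG15 stood at rank 10075 of 17162 genes in CON and at rank 15 in GB, where it held 0.395% of the summed FPKM of a library. Its relative spread was unlike that of the other genes. The coefficient of variation was 58.5% in CON and 55.0% in GA but 0.749% in GB, so the size of the fold rests on an imprecise baseline.

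UBA7, which activates ISG15 at the first step, was listed at 3.84, 3.19 and 3.62 FPKM in CON, 2.38, 2.82 and 3.70 in GA and 143, 138 and 135 in GB. The GB libraries were close together and far from the rest. The ratio of mean FPKM was 46.7 in GB over GA and 39.0 in GB over CON, with a log2FC of 5.34 (SE 0.13, limma, BH-adjusted p = 1.9e-09) in GB vs. GA.

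UBE2L6, the conjugating enzyme of the second step, was listed at 16.0, 10.4 and 12.3 FPKM in CON, 11.4, 10.8 and 13.1 in GA and 157, 151 and 161 in GB. It started from a higher level than UBA7 and rose less. The ratio of mean FPKM was 13.3 in GB over GA and 12.1 in GB over CON, and the log2FC in GB vs. GA was 3.68 (SE 0.13, limma, BH-adjusted p = 4.0e-08).

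HERC5 and HERC6 are neighboring genes that encode related ligases. HERC5 was listed at 12.3, 11.4 and 11.6 FPKM in CON, 12.6, 12.8 and 14.9 in GA and 162, 163 and 177 in GB. HERC6 was listed at 15.1, 11.4 and 14.0 FPKM in CON, 14.8, 13.1 and 14.4 in GA and 304, 313 and 325 in GB. The pair started alike and parted with IFNT. The log2FC in GB vs. GA was 3.59 (SE 0.074, limma, BH-adjusted p = 7.3e-10) for HERC5 and 4.43 (SE 0.095, limma, BH-adjusted p = 9.1e-10) for HERC6, with 95% intervals of 3.43 to 3.76 and 4.22 to 4.65. How the counting treated reads that match both genes is not given in the sources used here.

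USP18, the removal enzyme, was listed at 3.71, 2.51 and 3.30 FPKM in CON, 4.07, 4.33 and 4.53 in GA and 547, 569 and 584 in GB. The 3 groups did not overlap. The ratio of mean FPKM was 132 in GB over GA and 179 in GB over CON, and the log2FC in GB vs. GA was 6.88 (SE 0.11, 95% interval 6.63 to 7.13, limma, BH-adjusted p = 1.8e-10). Of the 6 genes it had the second largest rise after ISG15 in GB vs. GA and in GB vs. CON. Its level moved from rank 10559 of 17162 genes in CON to rank 408 in GB.

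**Figure D2:**
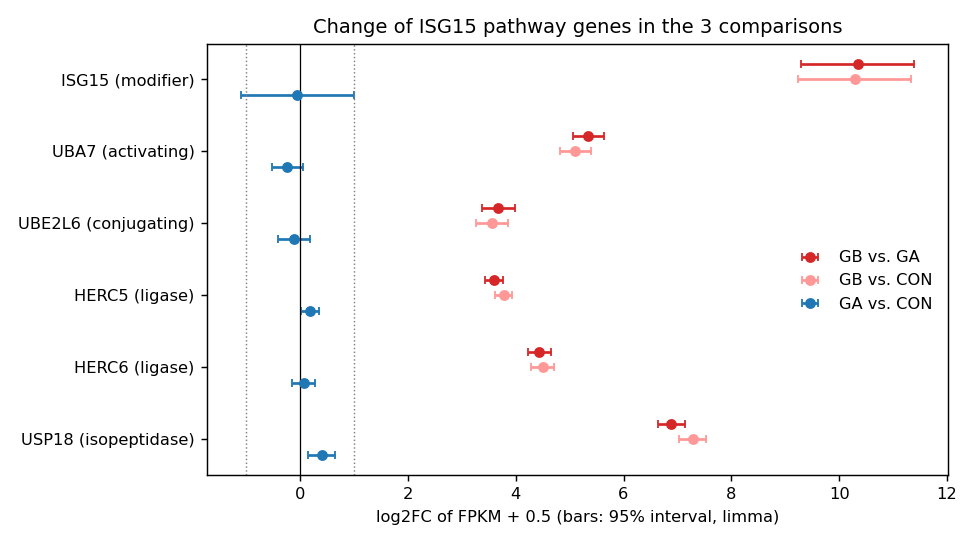
log2FC of FPKM + 0.5 for the 6 genes in GB vs. GA (red), GB vs. CON (pink) and GA vs. CON (blue), with bars for the 95% interval from limma and dotted lines at 1 and −1. The GB intervals of all 6 genes lie right of 3, and those of GA vs. CON lie near 0, widest for ISG15 (−1.10 to 0.99).

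Cells given hormones without IFNT were compared with untreated cells in GA vs. CON. The study describes a change to fresh medium for the treated groups and none for CON. The hormones therefore cannot be told apart from the medium change or from a difference in culture time. Limma called none of the 6 genes, and 0.0716% of all tested genes were called. At an unadjusted p under 0.05 there were 2, USP18 and HERC5. Their log2FC was 0.40 for USP18 (SE 0.11, 95% interval 0.15 to 0.65, limma, BH-adjusted p = 0.123) and 0.18 for HERC5 (SE 0.074, 95% interval 0.015 to 0.35, limma, BH-adjusted p = 0.228). In both genes the GA libraries lay above the CON libraries, as in 18.6% of all tested genes, and the median log2FC of all tested genes was 0.061. An unadjusted p under 0.05 in GA vs. CON was also found for 3 of 9 other activating-enzyme genes and 10 of 32 other UBE2 genes. It was found for 1 of 4 other HERC genes, 12 of 43 other USP genes and 6 of 12 other modifiers. The share of all tested genes at that level is not given here. For UBA7 the log2FC was −0.24 (95% interval −0.53 to 0.049), for UBE2L6 −0.11 (−0.41 to 0.19) and for HERC6 0.065 (−0.15 to 0.28). The interval of ISG15 ran from −1.10 to 0.99, so that a change of up to about that size in either direction was not detectable in these libraries.

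The order of the levels also differed between the groups. FPKM is scaled for exon length, which allows a rough comparison of levels between genes. It rests on the gene models used, whose annotation release is not given in the sources used here. In CON the order was HERC6, UBE2L6, HERC5, ISG15, UBA7 and USP18, from 13.5 to 3.17 FPKM. The first 3 overlapped each other, as did the last 3, and the only gap was between HERC5 and ISG15. In GA the order was HERC6, HERC5, UBE2L6, USP18, ISG15 and UBA7. The first 3 again overlapped each other, with a gap to the last 3. Of these, ISG15 overlapped both others, but USP18 (4.07 to 4.53 FPKM) lay above UBA7 (2.38 to 3.70). In GB the order was ISG15, USP18, HERC6, HERC5, UBE2L6 and UBA7, from 5582 to 138 FPKM, and no neighbors in it overlapped. ISG15 and USP18, among the last 3 in CON and GA, led it in GB.

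Ratios within a library do not depend on the scaling between libraries. ISG15 stood at 0.458 to 1.94 times UBA7 in CON, 0.756 to 2.29 times in GA, against 39.3 to 41.5 times in GB. USP18 stood at 0.787 to 0.966 times UBA7 in CON, 1.22 to 1.71 times in GA, against 3.83 to 4.33 times in GB, with no overlap between the groups. The RNA of the removal enzyme thus went from below that of the activating enzyme in CON to about 4 times it in GB, where the mean ratio was 4.10 ± 0.25 (SD, n = 3).

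USP18 also passed the ligases. It was at 0.220 to 0.301 times HERC5 in CON, 0.304 to 0.338 times in GA, against 3.30 to 3.50 times in GB. UBE2L6 moved the other way relative to UBA7, from 3.28 to 4.15 times in CON and 3.53 to 4.78 times in GA to 1.09 to 1.195 times in GB, so that the RNA of the activating and conjugating enzymes came close to parity. HERC6 was at 1.00 to 1.22 times HERC5 in CON, 0.966 to 1.17 times in GA, against 1.83 to 1.93 times in GB. Of the 15 pairs of the 6 genes, 14 had ratios in GB outside their range over CON and GA. The exception was UBE2L6 over HERC5, at 0.916 to 1.29 in CON, 0.848 to 0.902 in GA, against 0.909 to 0.970 in GB. The 15 pairs share the same 6 genes and largely restate their unlike log2FC. They are thus not independent, and other pairs of genes were not counted.

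**Figure D3:**
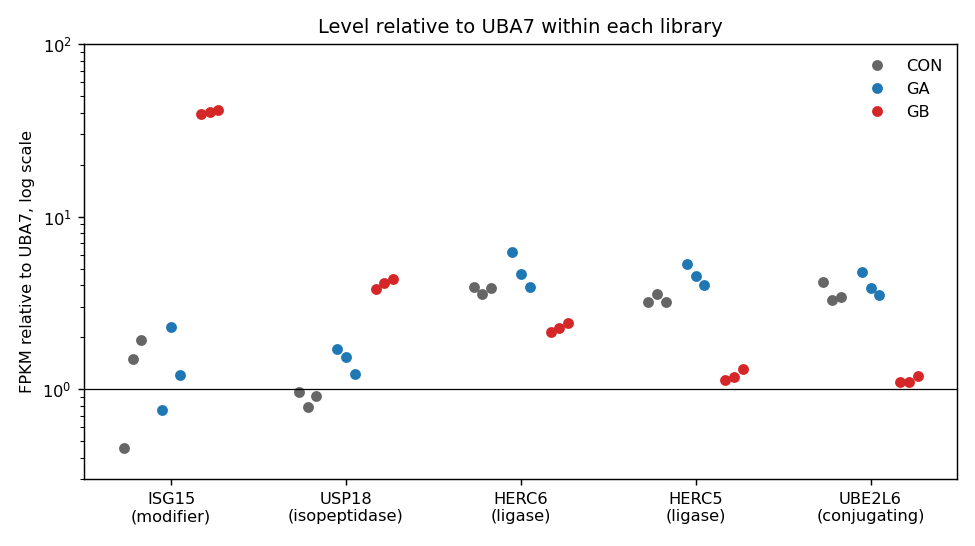
FPKM of ISG15, USP18, HERC6, HERC5 and UBE2L6 divided by that of UBA7 in the same library (log axis), with 1 point per library of CON (grey), GA (blue) and GB (red). In GB the points of ISG15 and USP18 lie above those of CON and GA, and those of HERC6, HERC5 and UBE2L6 lie below them.

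The summed FPKM of the 6 genes was 43.7 to 52.7 in CON, 47.1 to 55.1 in GA, against 6869 to 6978 in GB, which was 0.481% to 0.497% of all FPKM of a GB library. ISG15 made up 3.34% to 13.5% of this sum in CON, 3.83% to 12.8% in GA, against 80.2% to 81.0% in GB. USP18 made up 5.74% to 7.05% in CON, 8.23% to 8.65% in GA, against 7.89% to 8.37% in GB. The shares of HERC5, HERC6, UBE2L6 and UBA7 were each smaller in GB than in the other groups. UBE2L6, for example, went from 23.8% to 30.3% in CON to 2.19% to 2.31% in GB.

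Relatives of the 6 genes serve ubiquitin and other modifiers and were examined as whole lists. Over all tested genes 3.64% were called in either direction in GB vs. GA, and 40% had an unadjusted p under 0.05, so lists of this size hold few calls at the background rate. Of 9 other activating-enzyme genes, limma called 0 in GB vs. GA (2 at an unadjusted p under 0.05), with log2FC from −0.31 to 0.058. Of 32 tested conjugating-enzyme genes of the UBE2 family it called 0 (11 at an unadjusted p under 0.05), of 4 other HERC genes 0 (2 at that level), and of 43 other tested USP genes 0 (21 at that level). Of 12 other modifiers, among them ubiquitin, NEDD8 and the SUMO genes, it called 0 (1 at that level). The median log2FC of these 5 lists lay between −0.15 and −0.0028, near the −0.075 of the whole table. In GB vs. CON, where 4.01% of the tested genes were called in either direction, the same lists gave 1 call, UBE2QL1, listed at 1.70, 1.43 and 1.73 FPKM in CON but 0.560, 0.230 and 0.970 in GB (log2FC −1.02). That call was lost with a pseudocount of 1 or TPM and without CON1 (−0.99), CON3 (−0.98) or GB2 (−0.76). Nearest to the threshold on the other side was USP25, a peptidase of ubiquitin chains, with a log2FC of 0.79 in GB vs. GA and 0.97 in GB vs. CON. It was listed at 20.3, 16.9 and 20.7 FPKM in CON, 21.33, 22.13 and 22.03 in GA and 38.52, 35.86 and 40.01 in GB, and it was called in GB vs. CON without CON1, CON3 or GB2.

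**Figure D4:**
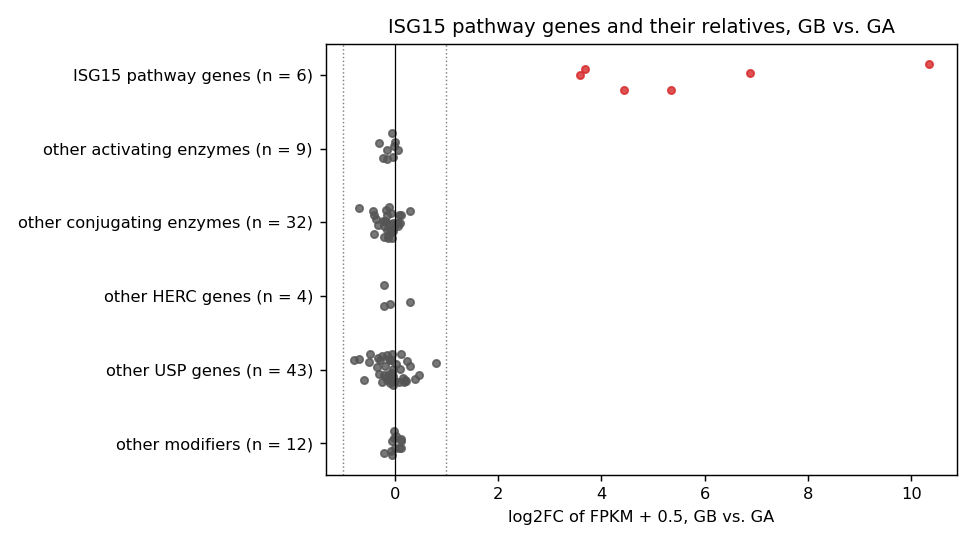
log2FC of FPKM + 0.5 in GB vs. GA for the 6 ISG15 pathway genes (red) and for other genes of the same families and other modifiers (grey), 1 point per tested gene, with vertical jitter only for legibility and dotted lines at 1 and −1. The red points lie between 3.59 and 10.34 and the grey points between −0.78 and 0.79.

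The closest relatives are given gene by gene. UBA1, the activating enzyme of ubiquitin, was at 217 ± 9.59 FPKM (SD, n = 3) for CON, 215 ± 1.02 for GA and 209 ± 2.37 for GB. It stood at 54.9 to 90.8 times UBA7 in CON and GA and at 1.49 to 1.55 times UBA7 in GB. UBE2L3, the paralog of UBE2L6, was at 507 ± 60.2 FPKM in CON, 556 ± 13.9 in GA, 541 ± 30.2 in GB, and went from 33.7 to 50.2 times UBE2L6 without IFNT to 3.27 to 3.82 times in GB. Their log2FC in GB vs. GA was −0.037 (95% interval −0.13 to 0.053) for UBA1 and −0.040 (−0.22 to 0.14) for UBE2L3. Both signs turned with median-of-ratios factors, to 0.037 and 0.035. HERC3, which lies in the same family as HERC5 and HERC6, was at 5.40 ± 0.18 FPKM in CON, 5.92 ± 0.74 in GA and 5.04 ± 0.22 in GB. HERC4, another gene of that family, was higher in every GB library (30.3, 30.4 and 31.2 FPKM) than in GA (24.1, 24.2 and 26.4) and CON (21.1, 17.4 and 22.2). Its log2FC was 0.30 in GB vs. GA (SE 0.088, limma, BH-adjusted p = 0.0327) and 0.60 in GB vs. CON (SE 0.088, limma, BH-adjusted p = 0.000884), under the fold threshold.

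Within their families the 6 genes changed places. Among 46 USP genes, USP18 was number 40 by mean FPKM in CON, 39 in GA and 1 in GB, where the median of the family was 19.2 FPKM. UBA7 went from last of 8 activating-enzyme genes (the partner subunits SAE1 and NAE1 left out) in CON to number 2 in GB, after UBA1. UBE2L6 went from number 32 of 34 conjugating-enzyme genes to number 14. Against UBB, a gene that encodes ubiquitin itself, ISG15 in GB was at 18.7 to 20.3 times. In CON it was at 0.0061 to 0.0234 times UBB.

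Other enzymes are also known to act on ISG15. TRIM25, a ligase for ubiquitin and ISG15 that takes part in RIG-I signaling, rose from 47.0 ± 2.71 FPKM (SD, n = 3) in GA to 137 ± 6.39 in GB, a log2FC of 1.53 (SE 0.061, limma, BH-adjusted p = 8.5e-08). TRIM25 was above HERC5 and HERC6 in every CON and GA library and below both in every GB library. ARIH1, another ligase reported for ISG15, was at 46.5 FPKM in GA and 44.6 in GB and was not called. None of the peptidases USP2, USP5, USP13, USP14 and USP21, which react with ISG15 in test systems, was called. These peptidases are also among the 43 other tested USP genes above. Thus 1 of these 7 other enzymes, TRIM25, was called in GB vs. GA, against 3.64% of all tested genes.

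Of 5 genes whose products meet USP18 at the interferon receptor, 1 was called higher and 1 lower in GB vs. GA, where 3.64% of all tested genes were called in either direction. STAT2, which brings USP18 to the receptor, was listed at 12.3, 12.3 and 13.5 FPKM in GA and 45.9, 49.3 and 47.6 in GB (log2FC 1.87, SE 0.065). IFNAR1, a subunit of the receptor, was listed at 35.7, 36.0 and 38.1 FPKM in GA and 12.4, 15.1 and 15.2 in GB (log2FC −1.34, SE 0.088, limma, BH-adjusted p = 4.2e-06). IFNAR2, the subunit that USP18 binds, had a log2FC of 0.10 (95% interval −0.100 to 0.30), and JAK1 and TYK2 had −0.0046 and −0.065. In GB vs. CON the same pair of genes, STAT2 (1.85) and IFNAR1 (−1.16), was called.

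Of 13 genes whose proteins have been reported to carry ISG15, 5 were called higher and 0 lower in GB vs. GA, where 2.66% of all tested genes were called higher. Among them were MX1 (log2FC 7.64), DDX58 (5.19), EIF2AK2 (3.0024) and IRF3 (1.27), which are themselves antiviral or interferon signaling genes. The median log2FC of the 13 was 0.12, and the highest of the 8 that were not called was that of PCNA (0.36). The same 5 were called higher in GB vs. CON. JAK1, UBE2N and UBE2E1 are in this list and also in lists above, so the lists are not independent.

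The genes most like each of the 6 were taken as the 3 tested genes at the smallest Euclidean distance over the 9 libraries, on log2(FPKM + 0.5) minus the CON mean of the gene. For ISG15 they were MX2 (1.76), RSAD2 (2.08) and IFIT2 (3.43). All 3 were under 0.5 FPKM on average in CON and GA, so they entered through their GB level, and their distances rest on the pseudocount. The same was so for 7 of the 18 nearest genes in all, 2 of them for UBA7 and 2 for USP18. For USP18 they were IFIH1 (0.795), ZBP1 (0.832) and OAS1Y (0.920). For HERC5 they were C7H19orf66 (0.305), BOLA-NC1 (0.433) and IFI35 (0.435), and for HERC6 IFI16 (0.437), PARP14 (0.441) and TRIM21 (0.502). For UBE2L6 they were BoLA (0.483), TRIM34 (0.580) and TRANK1 (0.605). For UBA7 the nearest were LOC509283, annotated in the deposited table as RNF213 (0.558), and LOC618409 (0.727). Within the 6, HERC5 and UBE2L6 were nearest to each other (0.714), and the nearest of the 6 to ISG15 was USP18, at 5.57. These neighbors depended on the pseudocount, since 10 of the 18 (3 for each of the 6 genes) were still among the first 3 with a pseudocount of 1 and 11 with 0.1.

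The genes that flank the 6 in the genome were listed by their order in RefSeq (ARS-UCD2.0), 2 protein-coding genes on each side, a choice made after the values of the 6 were seen. HERC5 and HERC6 lie next to each other. PIGY and PYURF on the HERC5 side had log2FC of −0.022 and 0.0052 in GB vs. GA, and PPM1K and ABCG2 on the HERC6 side had 0.33 and 0.66, none of them called. Of 20 flanking genes other than the 6 themselves, 12 could be tested and 4 were called in GB vs. GA (3 of the 11 that would pass the filter on CON and GA alone), where 3.64% of all tested genes were called in either direction.

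ISG15 was flanked by AGRN and HES4, both called higher. AGRN, which encodes the matrix proteoglycan agrin, was listed at 5.09, 4.97 and 6.05 FPKM in GA and 24.6, 24.1 and 24.4 in GB (log2FC 2.09, SE 0.092). HES4, a transcription factor gene, passed the filter only through GB and was low, at 0.690, 0.220 and 0.490 FPKM in GA and 3.59, 1.29 and 2.64 in GB (log2FC 1.59, SE 0.34). ISG15 between them went from 4.25 to 5582 FPKM, and its part in these values was not tested. Beside UBE2L6, SERPING1, the C1 inhibitor of complement, was at 5.81 FPKM in GA and 20.8 in GB (log2FC 1.76), and YPEL4 at 18.2 and 9.21 (log2FC −1.01). The call of YPEL4 was lost without GA1 (−0.94), GA3 (−0.91) or GB3 (−0.64), with 4 other scalings or pseudocounts (−0.94 to −0.97), and with the replicate block (limma, BH-adjusted p = 0.0507). None of the tested genes that flank UBA7 and USP18 was called.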

How the data were processed

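The authors trimmed reads with fastp, removed rRNA reads with Bowtie2, aligned the rest to ARS-UCD1.2 with HISAT2 and obtained gene counts with RSEM. For each gene the deposited table gives FPKM computed by the authors, 1 column per library, to 2 decimals. The annotation release is not given in the sources used here, and the read counts behind a value were not analysed here.

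Tests used log2(FPKM + 0.5) with no added scaling, on the 12578 genes with a mean of at least 0.5 FPKM. A linear model of the 3 groups over the 9 libraries was fitted with limma 3.58.1 in R 4.3.3, with a variance trend, and adjusted by Benjamini-Hochberg over all tested genes. A gene was called at |log2FC| above 1 and adjusted p under 0.05, the thresholds of the study, whose own test needs read counts. The procedure was run on simulated data with independent normal errors, in which only genes above low FPKM were shifted. That run does not test calls of genes near 0 FPKM. Figures were drawn with matplotlib 3.10.9.

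The 9 libraries had FPKM sums of 1395622 to 1442723, 14452 to 14893 genes above 0, and a mean Pearson's r to their own group of 0.990 to 0.991 over the tested genes. The 6 genes, the lists and the tests were chosen with earlier results of these data known. The ratios and flanking genes were chosen after the values were seen. Outside the 6 genes, those named are the called genes of the lists, the nearest paralogs, the genes nearest in profile and the flanking genes, and the extremes of a list. Neighbors in the genome were taken from RefSeq (ARS-UCD2.0), where all 6 symbols matched, for gene order only. A few listed markers were not analysed here, and some genes of the lists and profiles are not reported by name, while the counts include them.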

Additional observations from a re-analysis of the deposited data

How the results depend on the processing

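The 6 genes were called higher in GB vs. GA and in GB vs. CON, and not in GA vs. CON, under each of the 19 alternatives (pseudocounts, filters, scalings, variance trend, fits of 2 groups, replicate block, single libraries left out). Over these, the log2FC in GB vs. GA was 9.89 to 10.69 for ISG15, 6.74 to 7.01 for USP18 and 3.55 to 3.67 for HERC5. In GA vs. CON signs turned where values were near 0. ISG15 (main value −0.052) ranged from −0.54 to 0.40 with 1 library left out and was above 0 without CON2 (0.064), CON3 (0.32) or GA1 (0.40). With 1 library left out UBE2L6 ranged from −0.25 to 0.044 (without CON1) and HERC6 from −0.047 (without CON2) to 0.15, and HERC6 was at −0.0046 with quantile normalization. In GB vs. GA, UBA1 and UBE2L3 turned to 0.037 and 0.035 with median-of-ratios factors and UBE2L3 to 0.0097 with quantile normalization, and in GB vs. CON UBE2L3 ranged from −0.0031 (without CON2) to 0.16. The 9 genes called over the whole table in GA vs. CON became 2 with a filter at a mean of 1 FPKM, 5 with TPM, 5 with the replicate block, and 3 to 13 with 1 library left out (3 without GA3, 4 without CON1 or CON2, 5 without GA1 or GB1, 6 without GA2). The cause was not tested. Deviations from the group means correlated at −0.031 to 0.077 for the 9 pairs of libraries of equal replicate number. These low values show no strong pairing by number, but with 3 libraries per group they cannot exclude a weak one. The replicate block changed no call of the 6 genes. The ISG15 to UBA7 ratio in GB over GA was 31.5, and 24.2 to 42.1 with 1 library left out. The SE of the log2FC in GB vs. GA was largest for ISG15 (0.46). It was 0.13 for UBA7 and UBE2L6, 0.11 for USP18, 0.095 for HERC6 and 0.074 for HERC5. ISG15, UBA7 and USP18 had low FPKM in CON and GA, and the part of this in the precision of their folds was not tested.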

Other observations

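In CON, ISG15 did not vary with the other 5 genes. CON1 had the lowest ISG15 value of its group (1.76 FPKM) and the highest value of each of the other 5 genes, and CON2 had the lowest value of each of these 5 with an ISG15 value of 4.74 FPKM, between those of CON1 and CON3. In GA the library with the highest value of 4 of the 5 genes, GA3, was in the middle for ISG15 (4.49 FPKM), and GA1 was lowest for ISG15 (1.80 FPKM) and for 3 of the 5. On log2(FPKM + 0.5) the range of ISG15 was 1.73 in CON and 1.60 in GA and at most 0.59 for any of the other 5 genes in either group. In GB the range of ISG15 was 0.021, the narrowest of the 6, and that of HERC5, 0.13, the widest. These are descriptions of 3 libraries per group, with no test.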
